A study of Mus musculus with 12 samples.

Results

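The comparison set 4 hippocampal RNA-seq libraries of the FMT-DSS group of mice against 4 of the FMT-CON group, over all genes of the deposited table. All 8 members were taken from the table's columns for these groups, out of 12 libraries in all. Every mouse of the study had received a fecal microbiota transplantation (FMT), the transfer of gut microbes in stool from a donor to a recipient. The labels name the groups only as FMT-CON, FMT-DSS and a group given DSS with the neuropeptide substance P (titled FMT-SP). The 4 FMT-SP libraries entered the estimate of the spread between libraries and the choice of tested genes by mean level. They also count among the other 10 libraries and in means over all 12, but not in the differences. The labels do not say what CON and DSS stand for, nor the strain, age or sex of the mice. Nor do they say whether each library came from a separate animal, so the p-values measure only the spread between these libraries.

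The hippocampus is a target of the stress axis: its neurons and glia carry glucocorticoid receptors, which on binding corticosterone raise genes such as Fkbp5, Klf15 and Pdk4. Its principal cells are the granule cells of the dentate gyrus and the pyramidal cells of CA1 to CA3, with microglia, astrocytes and vessels between them. Gut microbes are known to influence the state of microglia and the stress axis. Gene levels are given as FPKM (fragments per kilobase of transcript, scaled to the mapped fragments of the library), and differences are FMT-DSS minus FMT-CON on the log2(FPKM + 1) scale with their standard error (SE), a scale that understates the change of low genes.

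Several libraries stood apart before any comparison of groups. In FMT-DSS 2 and 4 together, 602 of the 12559 tested genes lay above, and 1342 lay below, every one of the other 10 libraries. FMT-CON 4 and FMT-DSS 4 had the largest shares of FPKM in mitochondrially encoded genes, 27.7% and 29.0%, against 15.9% to 20.3% in the other 6. Markers of neighbouring tissue also varied among these 8 libraries. Hormone genes of the hypothalamus and pituitary summed to 3870 FPKM in FMT-CON 3 and to 153 to 320 in the other 7 libraries. Choroid plexus markers summed to 137 and 64.0 FPKM in FMT-CON 3 and 4 and to 1406 to 3952 elsewhere, thalamus markers to 326 in FMT-CON 1 and at most 88.3 elsewhere, and striatum markers to 487 in FMT-DSS 3 and at most 252 elsewhere. The closest of all pairs crossed the groups: FMT-CON 2 and FMT-DSS 1 had a Pearson correlation of 0.9932 over tested genes, and their log2 values differed with a standard deviation (SD) of 0.190. FMT-DSS 2 and 4, by contrast, correlated at 0.9596 with each other. The depth, estimated from the steps between low values, was 31600000 to 37300000 fragments per library. Only 36.3% to 39.5% of low values fell on such steps, so these depths are rough.

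**Figure D1:**
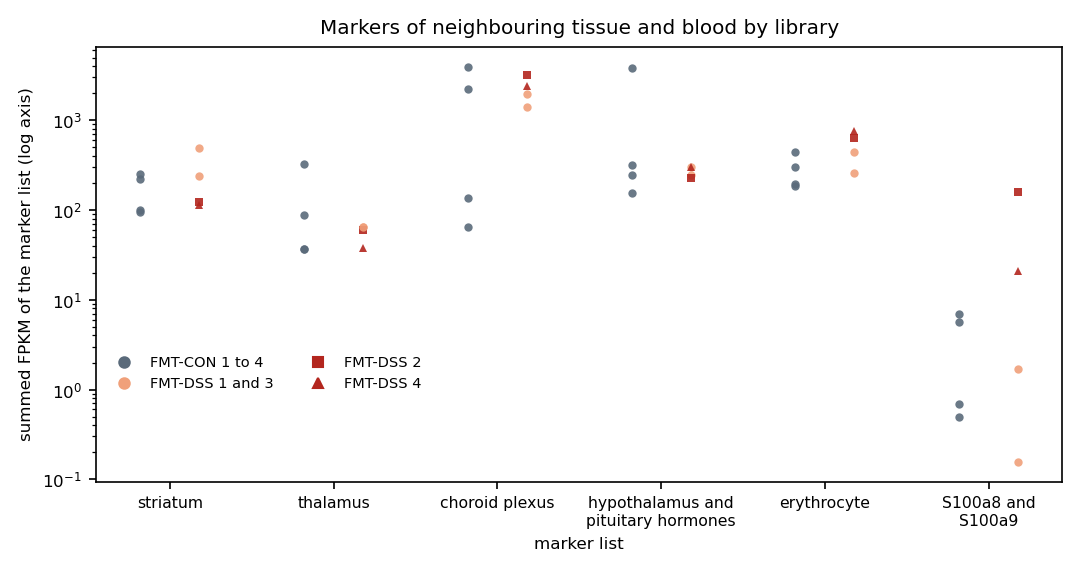
Summed FPKM (log axis) of marker lists for neighbouring brain tissue and blood in each of the 8 libraries, 1 point per library, with FMT-DSS 2 as squares and FMT-DSS 4 as triangles. FMT-CON 3 stands alone for pituitary hormones at 3870 FPKM, FMT-DSS 3 is highest for striatum at 487, and FMT-DSS 2 reaches 160 for S100a8 and S100a9.

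No gene passed a test over all genes. With limma on the 12559 genes whose mean was at least 1 FPKM, 0 genes (0% of those tested) had a Benjamini-Hochberg adjusted p under 0.05, and the smallest adjusted p was 0.966. Before adjustment 510 genes had p under 0.05, of which 157 (1.25% of tested genes) had the higher mean in FMT-DSS and 353 (2.81%) the lower. The FMT-DSS libraries all lay above the FMT-CON libraries for 65 genes (0.518%) and all below them for 155 (1.23%). For 95.9% of tested genes the 95% interval of the difference lay within a 2-fold change of FPKM + 1. The lean toward lower values was smaller under other scalings: after median-ratio scaling 241 genes were higher and 243 lower, after quantile normalization 216 and 284, and after rescaling to equal FPKM totals 189 and 241. Single libraries also set the count, which came to 243 when FMT-DSS 2 was left out, 855 when FMT-DSS 1 was, and 1198 when FMT-DSS 3 was, with 0 adjusted calls in each.

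Most of these genes lost their small p without FMT-DSS 2 and 4. In the fit without both, called the reduced fit here, again 0 genes (0%) passed the adjusted test, with a smallest adjusted p of 1, and the unadjusted count was 66 higher (0.526%) and 96 lower (0.764%). FMT-DSS 1 and 3 both lay above all 4 FMT-CON libraries for 356 genes (2.83%) and below them for 438 (3.49%), a looser criterion with 2 libraries than with 4. Of the 510 genes, 60 had p under 0.05 in both fits, and 450 did so only with all libraries, 143 of them higher and 307 lower. A median of 59.3% of the difference of the 510 was left in the reduced fit, which shares 6 of the 8 libraries. Over all tested genes the median difference was -0.035 with all libraries, 40.3% of genes being higher, and 0.007 without FMT-DSS 2 and 4, 52.2% being higher.

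**Figure D2:**
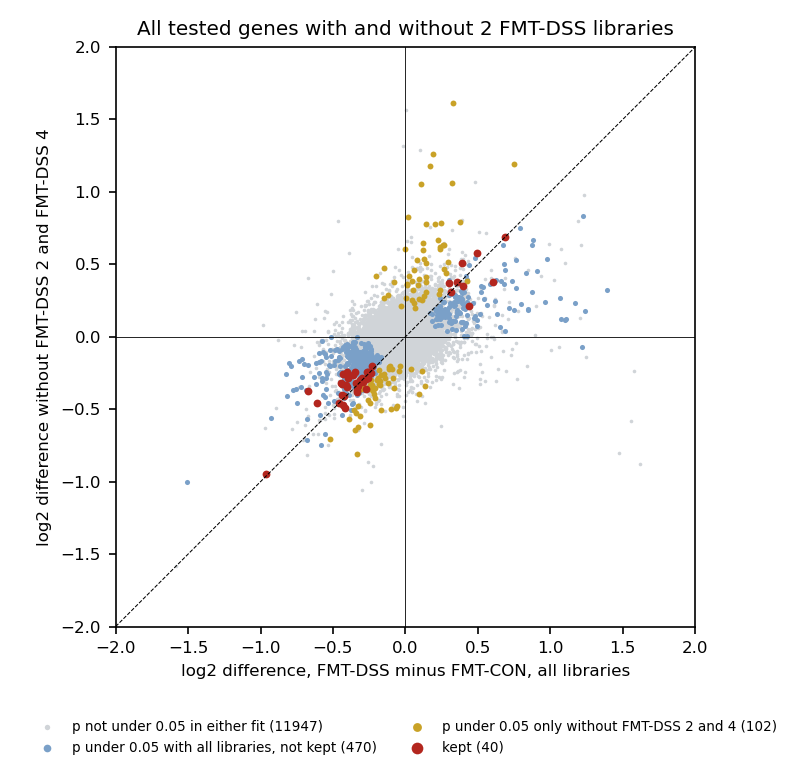
Difference FMT-DSS minus FMT-CON in log2(FPKM + 1) for each tested gene with all libraries (x axis) and without FMT-DSS 2 and 4 (y axis), with the dashed line marking equal values. The 40 genes described next (dark red) lie near that line, most of the 470 others with p under 0.05 (blue) lie closer to 0 on the y axis, and 3 genes fall outside the axes.

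The difference stayed, in the sense of an unadjusted p under 0.05 in both fits and no overlap between the 4 and 4 libraries, for 40 genes, 9 higher in FMT-DSS (0.0717% of tested genes) and 31 lower (0.247%). These genes were picked by this same contrast, so their values are a description. Positions are those of GENCODE vM21 on GRCm38, and the FPKM cover a whole gene.

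Among the 9 higher genes were Pdk4 and Klf15, both glucocorticoid-responsive. Pdk4 (chr6:5483351-5496309), a kinase that restrains pyruvate dehydrogenase, stood at 3.26, 2.79, 3.03 and 1.39 FPKM in FMT-CON 1 to 4 and at 3.8, 4.47, 5.72 and 4.93 in FMT-DSS 1 to 4. Its difference was 0.69 ± 0.21 (SE) with all libraries and 0.69 ± 0.27 without FMT-DSS 2 and 4. So the size was the same in both fits, and the lowest FMT-DSS library stood above the highest FMT-CON library. Klf15 (chr6:90462576-90475238), a transcription factor of metabolic control that glucocorticoids induce, stood at 4.80, 3.73, 4.22 and 3.49 FPKM in FMT-CON and at 5.04, 8.30, 6.12 and 7.61 in FMT-DSS. Its difference of 0.60 ± 0.16 narrowed to 0.38 ± 0.17 in the reduced fit, since FMT-DSS 2 and 4 were its highest libraries.

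The list of glucocorticoid-responsive genes, Pdk4 and Klf15 included, leaned the same way. Of its 22 genes, all tested, 21 had the higher mean in FMT-DSS, with a median difference of 0.61 against -0.035 over all tested genes. Without FMT-DSS 2 and 4, 18 of 22 were higher and the median was 0.31 against 0.007. The list's median deviation from the mean of all 12 libraries was 0.03 and 0.13 in FMT-DSS 1 and 3. In FMT-CON 1 to 4 it was 0.00, -0.43, 0.09 and -0.34. FMT-DSS 1 and 3 thus lay near FMT-CON 1 and 3, while FMT-CON 2 and 4 were low. Both FMT-DSS 2 and 4 exceeded the other 10 libraries for 13 of the 22, against 602 of the 12559 tested genes. Fkbp5, the co-chaperone that damps the glucocorticoid receptor, stood at 18.9, 16.7, 18.8 and 18.8 FPKM in FMT-CON and at 25.3, 40.8, 23.3 and 28.3 in FMT-DSS. Its libraries did not overlap, and its difference went from 0.63 ± 0.18 to 0.39 ± 0.18. Ddit4, a stress-induced inhibitor of mTOR, had 22.4 to 47.7 FPKM in FMT-CON, 37.6 in FMT-DSS 1 and 66.5 to 71.4 in the other 3 FMT-DSS libraries. The metallothionein gene Mt1, also induced by metals and inflammation, differed by 0.36 ± 0.30 with all libraries and by -0.17 ± 0.28 without FMT-DSS 2 and 4, which held 420 and 472 FPKM against 169 to 311 in the other 6.

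The circadian repressors leaned higher as well. Their list held 9 of 10 genes with the higher mean in FMT-DSS and a median difference of 0.25, which was 0.19 without FMT-DSS 2 and 4. Cry2, a light-independent repressor of CLOCK and BMAL1, stood at 23.0, 24.5, 24.3 and 21.1 FPKM in FMT-CON and at 27.0, 37.8, 27.2 and 27.8 in FMT-DSS, without overlap, and differed by 0.34 ± 0.12, or 0.22 ± 0.11 in the reduced fit. Nr1d1, the repressor REV-ERB alpha, rested on FMT-DSS 2 with 66.3 FPKM against 22.8 to 31.2 in the other 7 libraries. The 12 activators and outputs of the clock split 6 higher and 6 lower around a median of 0.00. Among them Tef, an output transcription factor, differed by 0.24 ± 0.10 and by 0.27 ± 0.12 without FMT-DSS 2 and 4.

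Promoters of Klf15, Per1 and Ciart are shown because Klf15 is the kept gene with the most copies of the clock's E-box, and Per1 and Ciart are the repressors with the largest differences. Each runs 5′ to 3′ on the gene's strand over 300 bases, 250 before and 50 from the start site, from RefSeq on GRCm38.p6, at chr6:90462326-90462625 (plus strand), chr11:69098699-69098998 (plus) and chr3:95882179-95882478 (minus). Capitals mark the E-box CACGTG and, in Per1, also the D-box TTATGNAA.
Klf15: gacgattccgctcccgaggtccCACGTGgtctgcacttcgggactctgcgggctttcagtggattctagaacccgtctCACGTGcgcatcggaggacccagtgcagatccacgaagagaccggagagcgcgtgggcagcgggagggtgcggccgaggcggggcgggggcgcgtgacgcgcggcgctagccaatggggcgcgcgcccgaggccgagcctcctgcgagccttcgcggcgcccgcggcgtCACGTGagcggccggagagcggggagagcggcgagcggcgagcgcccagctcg
Per1: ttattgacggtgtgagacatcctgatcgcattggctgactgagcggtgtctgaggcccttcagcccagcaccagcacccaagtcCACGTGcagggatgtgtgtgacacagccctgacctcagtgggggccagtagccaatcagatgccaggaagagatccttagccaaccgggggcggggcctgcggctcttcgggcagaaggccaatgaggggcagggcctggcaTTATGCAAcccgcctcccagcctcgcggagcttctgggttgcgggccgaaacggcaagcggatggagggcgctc
Ciart: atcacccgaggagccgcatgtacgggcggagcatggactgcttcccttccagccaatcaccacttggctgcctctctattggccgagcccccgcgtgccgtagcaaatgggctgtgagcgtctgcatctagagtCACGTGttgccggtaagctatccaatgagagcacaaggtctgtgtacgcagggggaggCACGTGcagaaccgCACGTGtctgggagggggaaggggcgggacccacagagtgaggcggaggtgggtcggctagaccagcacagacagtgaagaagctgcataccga
The E-boxes began 228, 172 and 3 bases before the start in Klf15, 166 before it in Per1, and 116, 58 and 44 before it in Ciart, and the Per1 D-box began 24 bases before it. A second Per1 promoter in the table, at chr11:69099902-69100201, held neither. The E-box, which reads the same on both strands, was present in 7.15% of all 32851 promoters of the table and in 9.88% of those of tested genes. Among the promoters of kept genes 5 of 41 (12.2%) held it, from 32 of 36 named genes matched, namely Anp32b, Klf15, Lingo3, Mfsd5 and Slc24a4. Of 9 promoters of the circadian repressors 4 held it. The D-box, sought on both strands, was in 3.38% of all promoters, in 1.94% of those of tested genes and in 0 of the 41. A glucocorticoid response element was taken as AGAACA and TGTTCT 3 bases apart with at most 2 mismatches. It was in 1.84% of all promoters and in 1.1% of those of tested genes. The glucocorticoid-responsive list held it in 3 of 30, from 2 genes, and the kept genes in 1 of the 41, a promoter of Ikbkg. No promoter of Pdk4, Klf15, Fkbp5 or Per1 held it. A match is only a description of these letters.

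Per1, which both glucocorticoids and the clock induce, stood at 6.60 to 7.92 FPKM in FMT-CON, 7.35 in FMT-DSS 1, 10.5 in FMT-DSS 3, and 16.4 and 14.4 in FMT-DSS 2 and 4. Ciart, a repressor of CLOCK and BMAL1, stood at 3.41 to 6.36 FPKM in FMT-CON, 4.64 and 7.29 in FMT-DSS 1 and 3, and 15.4 and 16.8 in FMT-DSS 2 and 4. For both the groups overlapped, and the differences of 0.62 ± 0.21 and 0.85 ± 0.33 shrank to 0.25 ± 0.19 and 0.19 ± 0.27 in the reduced fit.

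NF-kB pathway genes gave another pair of kept genes, 2 of the 11 tested, against 0.0717% of tested genes kept as higher. Rela (chr19:5637483-5648130), the p65 subunit of the transcription factor NF-kB, stood at 6.58, 5.70, 5.10 and 7.32 FPKM in FMT-CON and at 8.71, 7.94, 9.55 and 7.34 in FMT-DSS. The groups met almost exactly, at 7.32 in FMT-CON 4 and 7.34 in FMT-DSS 4, and the difference was 0.39 ± 0.11, or 0.51 ± 0.13 without FMT-DSS 2 and 4. Ikbkg (chrX:74393290-74453854), the regulatory subunit NEMO of the kinase that frees NF-kB, stood at 2.38, 2.68, 2.32 and 1.66 FPKM in FMT-CON and at 3.78, 3.82, 3.88 and 2.86 in FMT-DSS, a difference of 0.50 ± 0.18 and 0.58 ± 0.23. Chuk, a catalytic subunit of that kinase, overlapped between groups through FMT-CON 1 at 9.02 FPKM and differed by 0.48 ± 0.17, or 0.55 ± 0.21. The inhibitor gene Nfkbia differed by 0.74 ± 0.27 and, in the reduced fit, by 0.38 ± 0.29. Across the list the picture was mixed, with 6 of 11 genes higher, 5 lower and a median of 0.18, or 0.08 without FMT-DSS 2 and 4 and 0.11 without FMT-DSS 4 alone. Myd88, an adaptor of Toll-like receptors that was singled out after its values were seen, was lower, by -0.32 ± 0.15 and -0.39 ± 0.17.

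The remaining 5 higher genes had varied functions, and 4 of them kept their size between fits while Phactr3 went from 0.44 ± 0.12 to 0.21 ± 0.09. Fbxl16, an F-box protein gene, was the most abundant, with 115, 157, 156 and 149 FPKM in FMT-CON and 187, 181, 169 and 176 in FMT-DSS, a difference of 0.31 in both fits (SE 0.10 and 0.13). Lingo3, a leucine-rich repeat membrane protein gene, had 7.13 to 7.92 FPKM in FMT-CON and 8.66 to 11 in FMT-DSS, and Slc24a4, an exchanger of sodium, calcium and potassium, had 6.28 to 8.27 and 8.28 to 10.2. Phactr3, a regulator of phosphatase 1 and actin, had 20.2 to 22.4 FPKM in FMT-CON, 25.0 and 25.3 in FMT-DSS 1 and 3, and 33.0 and 36.8 in FMT-DSS 2 and 4. Tmem215, a membrane protein gene, had 1.38 to 1.93 and 2.04 to 2.65 FPKM.

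**Figure D3:**
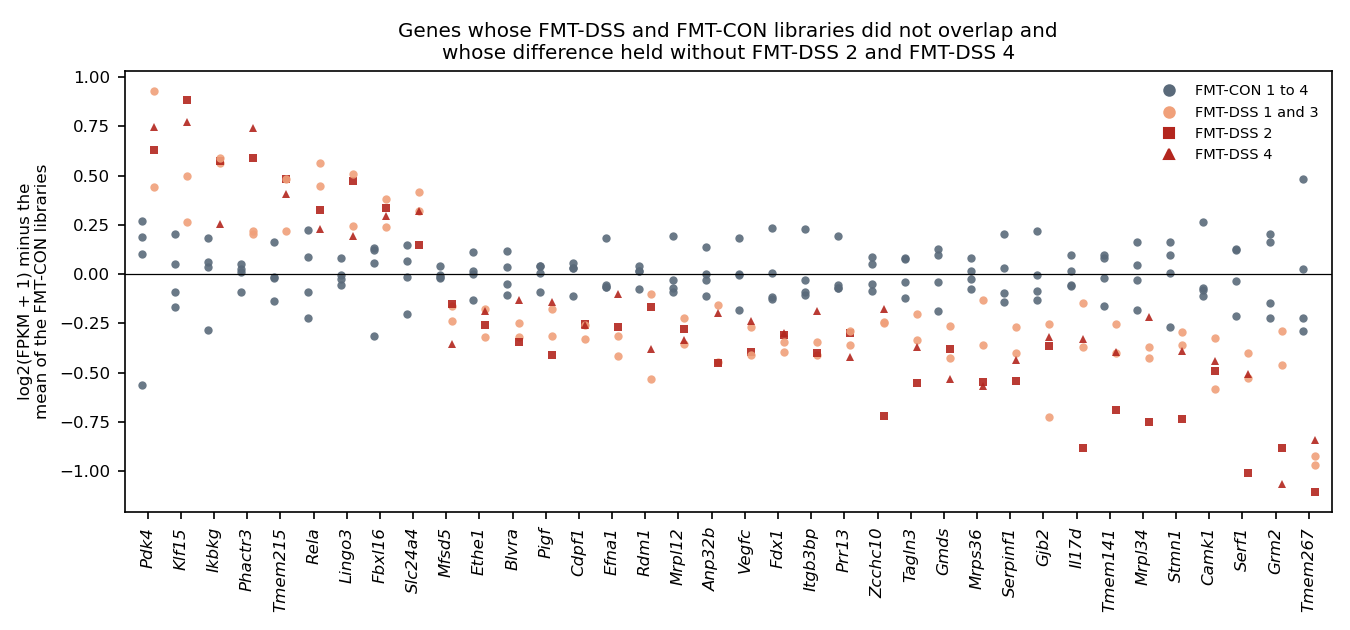
The 36 kept genes that carry a gene name, with 1 point per library as log2(FPKM + 1) minus the mean of the 4 FMT-CON libraries (y axis), FMT-DSS 2 as squares and FMT-DSS 4 as triangles. FMT-CON points (grey) and FMT-DSS points (red) do not overlap for any of these genes, by the way they were chosen, with the gap widest for Tmem267 (difference -0.96).

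Among the 31 lower genes a calcium-signalling kinase and a glutamate receptor were prominent. Camk1 (chr6:113334124-113343984), a calcium and calmodulin dependent kinase of neurite growth, stood at 33.9, 26.7, 25.9 and 26.5 FPKM in FMT-CON and at 22.2, 19.7, 18.4 and 20.4 in FMT-DSS. The difference was -0.46 in both fits, with SE 0.10 and 0.13, and FMT-CON 1 stood above its group. In the list of 14 genes of this kinase family and its inhibitors, Camk1 included, 10 had the higher mean in FMT-DSS and 4 the lower. Camkv differed by 0.41 ± 0.17 and Camk1g by 0.33 ± 0.14, while Camk2d differed by -0.55 ± 0.24. Grm2 (chr9:106643095-106656082), the presynaptic glutamate receptor mGlu2, stood at 19.6, 18.6, 24.6 and 25.3 FPKM in FMT-CON and at 15.6, 11.4, 17.7 and 9.91 in FMT-DSS. Its difference of -0.68 ± 0.17 was -0.37 ± 0.15 without FMT-DSS 2 and 4, its lowest libraries. Of the 7 metabotropic glutamate receptor genes tested, 5 were lower with a median of -0.34, but 4 were higher in the reduced fit, at a median of 0.10. The median was -0.02 without FMT-DSS 4 alone, -0.12 without FMT-CON 2 and -0.16 without FMT-CON 1.

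Genes named as mitochondrial ribosomal proteins gave 3 of the 31 lower genes. The list was drawn by such names, which do not show that each product is part of the ribosome. Of its 28 genes 21 were lower, with a median of -0.13. Without FMT-DSS 2 and 4, 25 of 28 were lower at a median of -0.16, and without FMT-DSS 4 alone the median was -0.21. Other abundant housekeeping lists leaned alike in the reduced fit: 25 of 26 cytosolic ribosomal protein genes were lower at a median of -0.10, 18 of 20 proteasome subunits at -0.05 and 12 of 13 mitochondrially encoded genes at -0.21. Libraries did not overlap for 4 of the 28, against 1.23% of tested genes on the lower side: Mrpl34, Mrps36, Mrpl12 and Mrps12, the last outside the kept genes and singled out after its values were seen. Mrpl34 (chr8:71464959-71465747), of the large subunit, stood at 26.8, 22.7, 25.3 and 29.1 FPKM in FMT-CON and at 19, 15, 19.8 and 22.1 in FMT-DSS, and differed by -0.44 ± 0.13, or -0.40 ± 0.13. Mrpl12, also of the large subunit, had 55.1 to 67.4 FPKM in FMT-CON and 45.8 to 50.3 in FMT-DSS. Mrps36, named for the small subunit, had 34.9 to 39.1 and 24.5 to 33.5. Mrps21, the most abundant of the list, had 87.0 to 103 FPKM in FMT-CON and overlapped through FMT-DSS 3 at 98.4. The nuclear genes of oxidative phosphorylation had a smaller median of -0.10, with 16 of 24 lower. None of them lay apart between groups, against 1.23% of tested genes on the lower side and 0.518% on the higher. At such shares a count of none says little. The median was -0.05 without FMT-DSS 1, without FMT-DSS 2 or after median-ratio scaling, -0.06 without FMT-CON 4 and -0.16 without FMT-DSS 4. Fdx1, the ferredoxin that passes electrons to mitochondrial cytochrome P450 enzymes, had 2.72 to 3.78 FPKM in FMT-CON and 2.08 to 2.30 in FMT-DSS. Ethe1, a mitochondrial enzyme of sulfide breakdown, had 4.99 to 6.08 and 4.25 to 4.80.

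The other lower kept genes had varied functions. Stmn1, stathmin, which destabilises microtubules and is high in immature neurons, stood at 331, 245, 296 and 316 FPKM in FMT-CON and at 241, 177, 230 and 225 in FMT-DSS, a difference of -0.44 ± 0.12 and -0.32 ± 0.13. Tagln3, a neuronal transgelin, had 199 to 229 FPKM in FMT-CON and 147 to 188 in FMT-DSS. The groups of both genes were separate but near, at 245 against 241 for Stmn1. Vegfc, a growth factor of lymphatic vessels, had 1.32 to 1.99 and 0.980 to 1.23 FPKM. Gjb2, connexin 26 of the leptomeninges, had 2.66 to 3.68 and 1.43 to 2.37. Serpinf1, the anti-angiogenic pigment epithelium-derived factor, had 7.81 to 10.2 and 5.67 to 7.08. Efna1, an ephrin ligand, had 3.65 to 4.52 and 2.65 to 3.54, and Il17d, a cytokine of the interleukin 17 family, 4.86 to 5.54 and 2.31 to 4.51.

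Tmem267, a membrane protein gene, had the largest difference of the 36 named kept genes. It stood at 4.49, 7.95, 5.52 and 4.23 FPKM in FMT-CON and at 2.27, 1.97, 2.38 and 2.57 in FMT-DSS, and differed by -0.96 ± 0.26, or -0.94 ± 0.35. The remaining named genes had smaller differences, from -0.23 for Mfsd5, a transporter gene, to -0.61 for Serf1. They were Gmds of fucose synthesis (-0.40), Blvra, biliverdin reductase (-0.26), Pigf of membrane anchor synthesis (-0.26), Anp32b, a histone chaperone (-0.31), Itgb3bp of the kinetochore (-0.34), Tmem141 (-0.43), Prr13 (-0.34), Zcchc10 (-0.35), Rdm1 (-0.29) and Cdpf1 (-0.27). In the reduced fit Serf1 differed by -0.46 ± 0.15 and Mfsd5 by -0.20 ± 0.08. Leaving out FMT-DSS 2 alone left -0.28 for Il17d and -0.22 of the -0.35 for Zcchc10. The other 4 kept genes carry only clone identifiers. Whether counting used strand is not given, so for kept genes that share exons with a gene on the opposite strand the source of the reads is uncertain: Camk1 with Ogg1, Grm2 with Gm28111, Ikbkg with G6pdx, Itgb3bp with Pgm1, Ethe1 with Zfp575, Pigf with Rhoq and Tmem267 with 3110070M22Rik. The same holds for Cry2, Tef, Nr1d1, Myd88, Csf1r, Cx3cr1, Cryab, Plin4, Dlx6 and Tspo among the genes described elsewhere.

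Of the 143 higher genes that had a small p only with all libraries, the 10 whose difference shrank most in the reduced fit are described. Cdkn1a, the cell cycle inhibitor p21, stood at 8.54 to 16.7 FPKM in FMT-CON, 15.3 and 13.2 in FMT-DSS 1 and 3, and 63.2 and 69.0 in FMT-DSS 2 and 4. Its difference of 1.39 ± 0.50 was 0.32 ± 0.34 without those 2 libraries. Icam1, an adhesion molecule for leukocytes on activated endothelium, had 0.679 to 1.05 FPKM in FMT-CON, 0.986 and 1.17 in FMT-DSS 1 and 3, and 9.57 and 6.79 in FMT-DSS 2 and 4. Plaur, the urokinase receptor, had 0.158 to 0.530 FPKM in the other 6 libraries and 8.47 and 5.13 in FMT-DSS 2 and 4. Each of these 3 genes was thus set by 2 libraries, with FMT-DSS 1 and 3 inside or close to the FMT-CON range.

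Other genes among the 10 higher ones that shrank most had the same pattern. Maff, a small Maf transcription factor, had 4.21 and 5.93 FPKM in FMT-DSS 2 and 4 and 0.264 to 0.634 in the other 6. Zfp36, which speeds the decay of cytokine mRNAs, had 17.1 and 7.10 against 1.63 to 3.40. Ccn1, a matricellular protein gene, had 13.3 and 8.94 against 1.81 to 6.13. Apold1, an endothelial early response gene, had 7.35 and 8.51 against 0.649 to 2.14. Ch25h, which makes 25-hydroxycholesterol, had 7.43 and 2.71 against 0.120 to 1, and Tmem252 had 12.8 and 3.57 against 0.425 to 2.19. Over the 13 endothelial adhesion and vessel genes 9 were higher, with a median of 0.13, but 5 were higher in the reduced fit at a median of -0.08, and the median was also below 0, at -0.03, without FMT-DSS 2 alone. Edn1, endothelin 1, was the only 1 of the 13 without overlap, against 0.518% of tested genes on the higher side. It had 0.780 to 1.31 FPKM in FMT-CON and 1.35 to 2.87 in FMT-DSS, and differed by 0.56 ± 0.19, or 0.22 ± 0.16. Immediate early genes as a list were not high in FMT-DSS 2 and 4: their median deviation was -0.11 and -0.35 there. Of the 17 genes, 0 lay above the other 10 libraries in both, against 602 of the 12559 tested genes, a share so small that this count says little.

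Genes of the barrier formed by brain endothelium had 11 of 14 lower and a median of -0.13, or 8 of 14 lower and -0.06 in the reduced fit. The median was also -0.06 without FMT-CON 1 and -0.30 without FMT-CON 4. The 3 genes described are those of smallest p, and 2 of them were higher against the list's lean. Slc2a1, the glucose transporter GLUT1, differed by 0.52 ± 0.21 and, in the reduced fit, by 0.35 ± 0.26. Mfsd2a, the lipid transporter that keeps the barrier closed, differed by 0.39 ± 0.16 and 0.30 ± 0.19. Slco1a4, an organic anion transporter, differed by -0.56 ± 0.23, but by -0.12 ± 0.18 without FMT-DSS 2 and 4, which held 5.95 and 8.43 FPKM against 12.5 to 20.5 elsewhere.

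**Figure D4:**
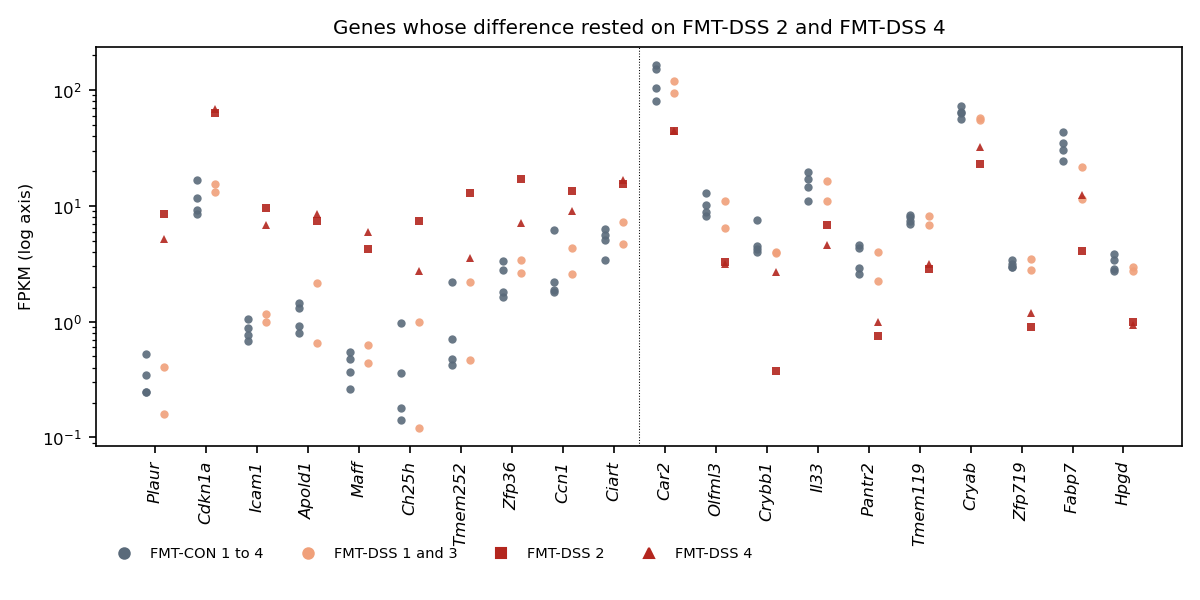
FPKM (log axis) in each of the 8 libraries for the 10 higher genes (left of the dotted line) and 10 lower genes (right) whose difference with all libraries shrank most without FMT-DSS 2 (squares) and FMT-DSS 4 (triangles). For Icam1 these 2 libraries reach 9.57 and 6.79 FPKM while the other 6 stay at or under 1.17.

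Markers of homeostatic microglia were low in FMT-DSS 2 and 4. All 16 homeostatic microglia genes tested, of 18 listed, had the lower mean in FMT-DSS, with a median of -0.40. For 11 of the 16, against 1342 of the 12559 tested genes, both FMT-DSS 2 and 4 lay below the other 10 libraries. Without those libraries 10 of 16 were higher, at a median of 0.07. Cx3cr1, the fractalkine receptor of microglia, had 7.37 to 13.1 FPKM in FMT-CON, 11.7 and 9.39 in FMT-DSS 1 and 3, and 1.12 and 2.20 in FMT-DSS 2 and 4. Its difference was -0.99 ± 0.47 with all libraries and 0.08 ± 0.22 without those 2. Of the 16, 4 had p under 0.05 before adjustment on the lower side, against 2.81% of tested genes: Tmem119, Siglech, Olfml3 and Aif1, with differences of -0.57 ± 0.24, -0.57 ± 0.21, -0.79 ± 0.31 and -0.55 ± 0.24. In bulk tissue fewer cells of a type and less RNA per cell cannot be told apart.

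Not every microglial gene was low in both libraries. Csf1r, the receptor microglia need to survive, had 19.1 and 9.15 FPKM in FMT-DSS 2 and 4 against 13.5 to 19.8 in the other 6, so that only FMT-DSS 4 lay below the rest. The 13 activation and lysosome genes of microglia had a median of 0.00, with 7 higher and 6 lower.

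Other genes among the 10 lower ones that shrank most were low in the same libraries. Cryab, a small heat shock protein of oligodendrocytes and astrocytes, had 22.8 and 31.9 FPKM in FMT-DSS 2 and 4 against 54.7 to 72.3 in the other 6. Car2, carbonic anhydrase 2 of oligodendrocytes and choroid plexus, had 44.4 in both against 80.3 to 164. Il33, an alarmin cytokine of glia, had 6.78 and 4.56 against 10.9 to 19.5, Hpgd, which breaks down prostaglandins, 1 and 0.943 against 2.72 to 3.84, and Crybb1, a crystallin gene also seen in microglia, 0.378 and 2.70 against 3.91 to 7.60. As lists, the myelin and astrocyte genes were uneven between these libraries. Median deviations in FMT-DSS 2 and 4 were -0.49 and -0.11 for the myelin list and 0.09 and -0.39 for the astrocyte list. FMT-CON 4 was low for them too, at -0.40 for the myelin list and -0.30 for the astrocyte list. Of 14 myelin and oligodendrocyte genes 3 lay below the other 10 libraries in both FMT-DSS 2 and 4, against 1342 of the 12559 tested genes. The myelin list summed to 1316 and 2089 FPKM in FMT-DSS 2 and 4 against 1528 to 3076 in FMT-CON. Its median difference of -0.24 was 0.06 in the reduced fit and -0.01 without FMT-CON 1. Of 14 astrocyte markers 8 were higher, with a median of 0.07 that was -0.06 without FMT-CON 4, -0.03 without FMT-DSS 2 and 0.00 without FMT-DSS 1.

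Fabp7, the lipid carrier of radial glia and astrocytes, did not rest on FMT-DSS 2 and 4 alone. It was low in all FMT-DSS libraries, at 11.4, 4.11, 21.6 and 12.4 FPKM against 34.9, 43.7, 24.2 and 30.1 in FMT-CON. The groups did not overlap, and its difference was -1.51 ± 0.48, or -1.0 ± 0.52 without FMT-DSS 2 and 4.

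Of 16 unfolded protein response genes 14 were lower at a median of -0.24, and the median was -0.03 in the reduced fit. Leaving out either of FMT-DSS 2 and 4 alone gave -0.15. Hsp90b1 and Calr, chaperones of the endoplasmic reticulum, differed by -0.36 ± 0.15 and -0.35 ± 0.15, or by -0.14 ± 0.12 and -0.13 ± 0.16. Of 14 heat shock genes 9 were lower at a median of -0.13, and 10 at -0.07 in the reduced fit. Here FMT-DSS 2 was not low, since the list's median deviation was 0.06 there and -0.32 in FMT-DSS 4, without which the list's median difference was -0.06. Without FMT-CON 4 that median was -0.20. Of the 14, 3 lay below the other 10 libraries in both FMT-DSS 2 and 4, against 1342 of the 12559 tested genes. The chaperone genes Hspa8 and Hsph1 were among these 3. Hspa8 had 604 and 545 FPKM in FMT-DSS 2 and 4 against 766 to 853, and Hsph1 had 36.9 and 22.5 against 49.0 to 56.6. Cholesterol synthesis genes had a median of -0.24 with 15 of 18 lower, and of 0.07 with 15 of 18 higher once those libraries were left out, and of -0.07 without FMT-DSS 4 alone. Fdps, which makes farnesyl diphosphate, differed by -0.31 ± 0.14 and by -0.12 ± 0.15.

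Markers of principal cells leaned in opposite directions in the dentate gyrus and CA1. Dentate granule cell markers had a median of -0.24 with 12 of 13 lower, and of -0.07 in the reduced fit with 9 of 13 lower. It was -0.14 without FMT-DSS 2 or without FMT-CON 3, and -0.38 without FMT-DSS 3. Stxbp6, a syntaxin-binding protein gene and the list's smallest p, differed by -0.40 ± 0.16 and -0.26 ± 0.19. Adult neurogenesis genes had a median of -0.20, of -0.07 in the reduced fit and of -0.32 without FMT-DSS 3 or without FMT-CON 4. Hes5, the Notch target that maintains neural stem cells, had 1.12 to 2.08 FPKM in FMT-CON, 1.39 and 1.03 in FMT-DSS 1 and 3, and 0.548 and 0.383 in FMT-DSS 2 and 4. CA1 pyramidal cell markers had a median of 0.38 with 9 of 10 higher and of 0.24 with 10 of 10 higher in the reduced fit, but FMT-CON 1 was low for them, at a median of -0.79 from the mean of all 12 libraries, and without it the median was 0.11. Itpka, a kinase of dendritic spines, had 38.4 FPKM in FMT-CON 1, 64.0 to 102 in the other FMT-CON libraries and 79.8 to 116 in FMT-DSS.

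**Figure D5:**
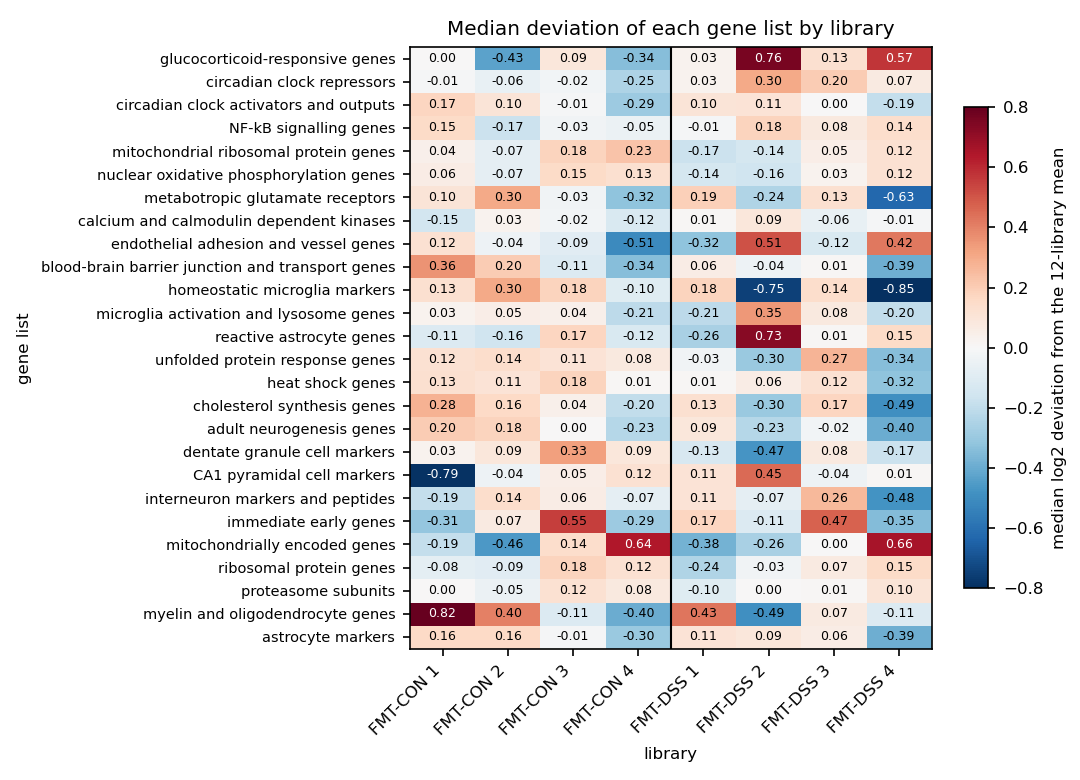
Median log2 deviation of each gene list's tested members from their mean over all 12 libraries, by library (columns, FMT-CON left and FMT-DSS right of the line), with the value printed in each cell. Glucocorticoid-responsive genes reach 0.76 and 0.57, and homeostatic microglia markers -0.75 and -0.85, in FMT-DSS 2 and 4.

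Blood-borne signals were uneven. S100a8 and S100a9, the calprotectin subunits of neutrophils, stood at 58.6 and 101 FPKM in FMT-DSS 2. FMT-DSS 4 held 8.42 and 12.8, and the others held 0 to 2.49 and 0.156 to 5.23. These were the only 2 of 17 listed lymphocyte and myeloid markers with a mean of at least 1 FPKM. Their values in FMT-DSS 2 raised that mean, so they do not stand for the list. Retnlg, another neutrophil gene, had 9.28 and 3.48 FPKM in FMT-DSS 2 and 4 and at most 0.228 elsewhere, and Ifitm6 had 13.1 and 1.34 against at most 0.717. Lcn2, lipocalin 2 of neutrophils and reactive astrocytes, had 285 FPKM in FMT-DSS 2 and 30.6 in FMT-DSS 4, but also 23.6 and 22.5 in FMT-CON 3 and 4. Ctla2a, whose reads may be shared with its close copy Ctla2b, had 102 and 55.4 against 3.94 to 9.14. The haemoglobin gene Hbb-bt, also with near copies, had 8.96, 10.4, 27.4 and 12.5 FPKM in FMT-CON and 17.5, 40.3, 32.9 and 44.7 in FMT-DSS. Of 6 erythrocyte genes 5 were higher at a median of 1.05, or 0.46 without FMT-DSS 2 and 4. The groups overlapped for all 5 of these but not for the 1 lower gene. Over all tested genes 1.23% lay apart on the lower side. The summed level of the erythrocyte list was 187 to 441 FPKM in FMT-CON and 262 to 766 in FMT-DSS, highest in FMT-DSS 2 and 4 at 631 and 766. The part of blood in the vessel and stress genes of these libraries was not tested. Reactive astrocyte genes, Lcn2 among them, had 9 of 10 higher at a median of 0.22, but 3 of 10 higher at -0.10 in the reduced fit, and the median was 0.00 without FMT-DSS 2 alone.

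Several of the largest differences came from genes that were high or low in single libraries. Gh and Prl, the pituitary hormones growth hormone and prolactin, differed by -3.60 ± 1.51 and -2.91 ± 1.42, with 2899 and 621 FPKM in FMT-CON 3 and at most 13.2 and 2.24 in the other 7 libraries of these groups. Without FMT-CON 3 their differences were still -1.57 and -0.92, and the other FMT-CON libraries held 6.99 to 13.2 and 0.707 to 2.24 FPKM. For 2 of the 8 tested hormone genes all FMT-DSS libraries lay below all FMT-CON libraries, against 1.23% of tested genes. Ttr, transthyretin of the choroid plexus, stood at 3561, 2017, 83.5 and 27.2 FPKM in FMT-CON and at 1798, 2877, 1290 and 2302 in FMT-DSS, so that FMT-CON 3 and 4 alone were low. The choroid plexus list had a median of 0.32, which was -0.01 without FMT-CON 4. The thalamus list had a median of -0.42, which was 0.04 without FMT-CON 1, where Slc17a6, the vesicular glutamate transporter VGLUT2, had 46.2 FPKM and Tnnt1, a troponin gene, 22.7, against at most 11.7 and 5.62 in the other 7 libraries. Depp1, a stress gene induced by FOXO factors, had 0.610 to 1.98 FPKM in FMT-CON, 0.809 and 2.23 in FMT-DSS 1 and 2, and 6.83 and 12 in FMT-DSS 3 and 4, a difference of 1.23 ± 0.50. Plin4, a lipid droplet protein gene, was spread within both groups, from 1.07 to 10 and from 4.58 to 18.2 FPKM.

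Leaving out FMT-DSS 2 and 4 brought forward 102 genes that had no small p with all libraries, 52 higher and 50 lower. Of the 8 higher genes taken by the naming rule, Drd1, Pde10a, Dlx6, Actn2 and Cpne5 are described, each highest in FMT-DSS 3. Drd1, the dopamine D1 receptor, stood at 3.78, 4.10, 0.967 and 0.617 FPKM in FMT-CON and at 4.97, 0.905, 5.38 and 0.453 in FMT-DSS, and differed by 0.11 ± 0.51 with all libraries and 1.06 ± 0.44 without the 2. Pde10a, the striatal phosphodiesterase, had 6.41 and 9.30 FPKM in FMT-DSS 1 and 3 and 2.78 to 5.95 in the other 6. Dlx6, of inhibitory neuron development, Actn2, an actinin, and Cpne5, a copine, had 9.02, 12.3 and 10 FPKM in FMT-DSS 3 and at most 5.44, 6.36 and 7.54 in any other library. All 13 striatum markers were higher in the reduced fit, at a median of 1.06, against 0.17 with all libraries, and without FMT-DSS 3 alone the median was -0.22. Summed, they gave 238 and 487 FPKM in FMT-DSS 1 and 3, 252 and 220 in FMT-CON 1 and 2, and 96.3 to 123 in the other 4. Without FMT-DSS 3 the difference was -0.22 for Drd1, -0.07 for Actn2 and -0.06 for Pde10a.

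Of the 8 lower genes taken from these 102, Cldn5, Serping1, Tspo, Pvalb and Psme2b are described. Cldn5, the claudin of the brain's tight junctions, had 19.9 to 25.5 FPKM in FMT-CON, 17.0 and 15.2 in FMT-DSS 1 and 3, and 31.7 and 27.5 in FMT-DSS 2 and 4. The FMT-DSS libraries thus lay on both sides of FMT-CON, and the difference was -0.05 ± 0.23 with all libraries and -0.47 ± 0.21 without the 2. Without FMT-DSS 1 alone it was 0.06, and without FMT-DSS 3 alone 0.11. Serping1, the complement C1 inhibitor, and Tspo, the mitochondrial translocator protein read as a marker of glial activation, had 7.29 and 7.10 FPKM in FMT-DSS 2 but 2.05 and 1.85 in FMT-DSS 1 and 2.71 and 2.52 in FMT-DSS 3, with FMT-CON at 2.93 to 4.30 and 3.18 to 4.12. Without FMT-DSS 1 alone these differed by 0.12 and 0.09, and Serping1 without FMT-DSS 3 alone by 0.03. Pvalb, parvalbumin of fast-spiking interneurons, stood at 46.6, 38.3, 36.8 and 51.8 FPKM in FMT-CON and at 33.3, 32.9, 27.0 and 41.7 in FMT-DSS, and differed by -0.36 ± 0.17 and -0.51 ± 0.20. Psme2b, a proteasome activator gene with close copies, differed by -0.25 ± 0.13 and -0.46 ± 0.12.

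Interneuron and activity genes gave no lean that held over the libraries. Interneuron markers had a median of 0.03, with 9 of 16 higher, and 0.24 in the reduced fit, and leaving out any single library among FMT-CON 1, FMT-CON 4, FMT-DSS 1 and 3 turned it to between -0.14 and -0.05. Cck, the abundant cholecystokinin gene, differed by -0.34 ± 0.20. Immediate early genes had a median of 0.02 with 10 of 17 higher, and 0.25 with 16 of 17 higher in the reduced fit, and leaving out any single library among FMT-CON 1, FMT-CON 4, FMT-DSS 1 and 3 turned it to between -0.12 and -0.06. Junb, which shares exons with Prdx2 on the opposite strand, had 10.8, 15.4, 38.6 and 16.4 FPKM in FMT-CON and 22.5, 23.8, 29.2 and 20.7 in FMT-DSS, a difference of 0.38 ± 0.30.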

How the data were processed

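RNA was measured as whole hippocampal tissue in 12 libraries, of which 8 belong to the groups compared. The authors deposited 1 table of FPKM for 27978 genes, from reads aligned with HISAT2 2.0 to the mouse build mm8 per the submitters' processing notes. No source used here names the counting tool, its strand setting or its annotation. The deposited FPKM were turned into log2(FPKM + 1) and genes averaging 1 FPKM or more across all 12 were tested with limma 3.58.1 in R 4.3.3 (trended variance, Benjamini-Hochberg adjustment over all 12559 genes). All 3 groups of 4 entered 1 fit, and a reduced fit omitted FMT-DSS 2 and 4. The fit was tested on simulated data. Low values were whole multiples of 1 fragment, within 0.05, for only 36.3% to 39.5% of cases, so counts were not recovered and no count test was run. No 2 libraries were identical.

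Groups and library numbers came from the sample titles. Members, gene lists and the naming rule were chosen with earlier results of these data known. Named genes are those kept in both fits, those resting on FMT-DSS 2 and 4, those of largest difference, those seen only without these 2, and up to 4 per described list by smallest p and by level. Blvra, Cdpf1, Efna1, Ethe1, Il17d, Mfsd5, Pigf, Rdm1, Tagln3, Zcchc10, Myd88 and Mrps12 fall outside that rule and were named after their values were seen. Some genes are not reported here, and 1 was taken off the erythrocyte list after its values were seen. Positions of 21054 genes matched by symbol come from GENCODE vM21, and promoters from RefSeq (GRCm38.p6), not from the authors' build. Alternatives were other pseudocounts, filters, scalings, 8 libraries only, a replicate block, array weights and each library left out. Alternatives that scaled the reduced fit by median ratios, or also omitted FMT-CON 3, were chosen after seeing the data.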

Additional observations from a re-analysis of the deposited data

Results flagged for a closer look

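Among 222 groups of 4 libraries examined for the named genes, 15 had 1 library far from the other 3 of its group (its gap to the nearest, over the whole range, was above Dixon's 95% critical value), and chance alone marks about 1 group in 20. In FMT-CON, FMT-CON 1 was high for Camk1 (33.9 FPKM, the others 25.9 to 26.7) and Prr13 (34.2, the others 28.3 to 28.6), and FMT-CON 2 was low for Fkbp5 (16.7, the others 18.8 to 18.9). FMT-CON 3 was high for Efna1 (4.52, the others 3.65 to 3.69), Ccn1 (6.13, the others 1.81 to 2.19), Gh (2899, the others 6.99 to 13.2) and Prl (621, the others 0.707 to 2.24) and low for Cdpf1 (5.17, the others 5.81 to 5.93). FMT-CON 4 was high for Crybb1 (7.60, the others 4.03 to 4.49).

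In FMT-DSS, FMT-DSS 1 was low for Ddit4 (37.6 FPKM, the others 66.5 to 71.4) and Cdpf1 (4.32, the others 4.58 to 4.60). FMT-DSS 2 was high for Cry2 (37.8, the others 27.0 to 27.8) and low for Zcchc10 (2.23, the others 3.49 to 3.71). FMT-DSS 4 was low for Ikbkg (2.86, the others 3.78 to 3.88) and Csf1r (9.15, the others 18.9 to 19.7).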

How the results depend on the processing

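No alternative gave a gene with an adjusted p under 0.05. The 510 genes with unadjusted p under 0.05 became 1202 with no filter on low values, 162 omitting FMT-DSS 2 and 4 (162 also with the filter recomputed, 170 after median-ratio scaling, 138 with FMT-CON 3 also omitted), and 243 to 1198 with each library left out in turn. A replicate block gave 1274 such genes, with a smallest adjusted p of 0.348. Libraries of the same number correlated in their deviations at 0.18, 0.24, 0.01 and 0.72, while FMT-CON 2 and FMT-DSS 1 correlated at 0.66, so the numbers were not taken to pair samples. The 220 genes without overlap became 491 with no filter, 794, 790, 840 and 1138 in the 4 reduced settings in the order above, 799 omitting the libraries numbered 4, and 318 to 854 with each library left out, since fewer libraries overlap less often. The 40 kept genes became 64 omitting the libraries numbered 4, and 37 (without FMT-CON 4) to 64 (without FMT-DSS 4) with each library left out. For these counts only the fit of all libraries and the overlap were varied. The reduced fit was kept unchanged, with every FMT-CON library in it, so the counts could not move freely.

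Of 713 list medians under alternatives 24 moved, that is, shifted by at least the SD of the list's library medians within the groups. A list that varies widely between libraries can thus change much without counting as moved. The glucocorticoid-responsive median, for example, went from 0.61 to 0.31 in the reduced fit and did not count. In the reduced settings metabotropic glutamate receptors came to 0.10 (0.09 with FMT-CON 3 omitted), homeostatic microglia markers to 0.07 (0.06), cholesterol synthesis genes to 0.07, unfolded protein response genes to -0.03 and striatum markers to 1.06. After median-ratio scaling of the reduced set reactive astrocyte genes came to -0.10. With FMT-CON 3 also omitted dentate granule cell markers came to -0.03 and immediate early genes to 0.48. Array weights gave 0.00 for metabotropic glutamate receptors, and omitting the libraries numbered 4 gave 0.06 for NF-kB signalling genes.

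Of 2545 values of 111 named genes 55 took the opposite direction, in 17 genes. In the reduced settings these were Mt1 at -0.17 (-0.13 with FMT-CON 3 omitted), Nr1d1 at -0.14 (-0.18), Plaur at -0.07 (-0.10), Cx3cr1 at 0.08, Csf1r at 0.20 (0.21), Ctla2a at -0.24 (-0.08), Lcn2 at -0.88 (-0.89 after median-ratio scaling, -0.15), S100a8 at -0.58 (-0.59 after scaling, -0.38), S100a9 at -0.80 (-0.81 after scaling, -0.42), Retnlg at -0.14 (-0.08) and, with FMT-CON 3 omitted, Tmem119 at 0.01. Array weights gave Csf1r 0.09, Lcn2 -0.27 and S100a9 -0.04. Omitting the libraries numbered 4 gave Csf1r 0.10. Leaving out each library in turn, values ranged up to 0.20 for Csf1r, from -0.22 to 0.49 for Drd1, down to -0.07 for Actn2, from -0.06 to 0.40 for Pde10a, up to 0.09 for Tspo, from -0.23 to 0.11 for Cldn5 and from -0.36 to 0.12 for Serping1. The causes were not tested. With 4 libraries a group and FPKM without counts, small differences in low genes could not be told from the spread.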
